A study of Mus musculus with 14 samples.

Results

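The p53 pathway and the GADD45 family were followed here as 10 genes: Trp53, which encodes p53, 6 of its well known targets (Mdm2, Cdkn1a, Ccng1, Bbc3, Pmaip1 and Phlda3) and the 3 GADD45 genes (Gadd45a, Gadd45b and Gadd45g). They were taken by symbol from the Ensembl identifiers of both deposited count tables, and all 10 were found among 49671 genes in each table. The cells were satellite cells, the resident stem cells of muscle, sorted fresh from hind-limb, pectoral and triceps muscle at rest of C57BL/6J mice, with 1000 cells in each of 14 libraries. The sort kept cells with CXCR4 and integrin B1 and without CD11b, CD31, CD45, Sca1 or Ter119.

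The first dataset held 4 libraries labelled FosGFP+ and 4 labelled FosGFP-, from mice aged 4 months that carry a GFP reporter of Fos; 4 mice are named in the series text. The second held 3 libraries labelled FoscKO, from mice with a conditional knockout of Fos, and 3 labelled Control, all aged 6 months; 3 mice are named in the series text. The labels name neither the driver of the Cre nor the part of Fos that was deleted, and they tie no library to a mouse, so p-values here measure the spread between these libraries, which may be partly technical. For both arms of the second dataset the series text describes a gate on FosGFP+ cells, and whether that is a slip could not be settled.

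p53 is a transcription factor that is kept scarce by MDM2, the ubiquitin ligase that marks it for destruction, and that is stabilised by DNA damage and other stress, so most of its control lies in the protein and not in its mRNA. Its targets hold the cell cycle (Cdkn1a), restrain p53 itself (Mdm2), or favour cell death (Bbc3 and Pmaip1). The GADD45 proteins are small stress-induced partners of the kinase MAP3K4, of PCNA and of the mitotic kinase CDK1; Gadd45a is a p53 target in many cells, while Gadd45b and Gadd45g are better known as genes induced by cytokines and growth factors. In muscle, Cdkn1a is known for the withdrawal of myoblasts from the cell cycle, and Gadd45a for its induction in denervated fibres.

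Promoters of some of the genes on which the results turn are shown first. Each window runs from 250 bases before to 50 bases after a RefSeq start on GRCm38.p6. Windows of 9 of the 10 genes were searched, 12 in all, and the gene left out is named with the processing. Capitals mark matches to the p53 decamer, to TATAAA, to CACGTG (the E-box) and to the p53 site of 20 bases, a pair of adjoining decamers with at most 1 mismatch, each searched on both strands. Of the 12 windows, 2 held the site of 20 bases, which 0.0883% of 32851 promoter windows held. Cdkn1a has 2 windows. In the one at chr17:29090729-29091028 on the plus strand, that site begins 51 bases before its start, and a separate decamer begins 73 bases before that start. The other Cdkn1a window, at a start further downstream (chr17:29093519-29093818), held none of the elements searched and is not shown. In Ccng1, at chr11:40755237-40755536 on the minus strand, the site begins 195 bases before the start.
Cdkn1a: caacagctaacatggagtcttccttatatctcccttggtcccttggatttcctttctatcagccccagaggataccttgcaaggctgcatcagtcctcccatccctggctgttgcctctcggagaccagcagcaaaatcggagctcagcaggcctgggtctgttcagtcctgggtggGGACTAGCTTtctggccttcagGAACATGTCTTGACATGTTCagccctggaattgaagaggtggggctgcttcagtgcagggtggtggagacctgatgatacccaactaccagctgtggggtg
Ccng1: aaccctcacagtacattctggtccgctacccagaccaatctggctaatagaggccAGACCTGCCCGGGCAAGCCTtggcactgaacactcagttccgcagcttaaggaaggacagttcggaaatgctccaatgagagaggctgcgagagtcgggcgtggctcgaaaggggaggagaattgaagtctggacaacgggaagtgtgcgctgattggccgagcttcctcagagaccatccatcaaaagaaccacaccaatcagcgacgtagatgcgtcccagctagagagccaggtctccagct

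The 3 GADD45 promoters differ in the same elements. Gadd45a, at chr6:67037358-67037657 on the minus strand, holds a p53 decamer beginning 40 bases before the start, an element in 8.36% of all windows. Gadd45b, at chr10:80929841-80930140 on the plus strand, holds TATAAA 46 bases and CACGTG 185 bases before the start, and no decamer. Gadd45g, at chr13:51846425-51846724 on the plus strand, holds the same pair, 27 and 142 bases before the start. TATAAA stood in 13.6% and CACGTG in 7.15% of all windows.
Gadd45a: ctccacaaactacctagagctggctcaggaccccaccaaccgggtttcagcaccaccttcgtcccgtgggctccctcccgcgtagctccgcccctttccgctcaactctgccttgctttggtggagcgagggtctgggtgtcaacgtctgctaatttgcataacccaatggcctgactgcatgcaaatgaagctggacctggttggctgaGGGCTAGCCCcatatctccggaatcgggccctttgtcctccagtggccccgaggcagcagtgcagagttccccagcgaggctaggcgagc
Gadd45b: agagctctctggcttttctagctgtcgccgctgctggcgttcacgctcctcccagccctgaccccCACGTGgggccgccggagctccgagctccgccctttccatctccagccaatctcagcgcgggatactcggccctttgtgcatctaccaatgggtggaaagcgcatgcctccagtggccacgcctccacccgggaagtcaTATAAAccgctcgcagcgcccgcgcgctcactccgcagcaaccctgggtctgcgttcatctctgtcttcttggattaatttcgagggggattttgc
Gadd45g: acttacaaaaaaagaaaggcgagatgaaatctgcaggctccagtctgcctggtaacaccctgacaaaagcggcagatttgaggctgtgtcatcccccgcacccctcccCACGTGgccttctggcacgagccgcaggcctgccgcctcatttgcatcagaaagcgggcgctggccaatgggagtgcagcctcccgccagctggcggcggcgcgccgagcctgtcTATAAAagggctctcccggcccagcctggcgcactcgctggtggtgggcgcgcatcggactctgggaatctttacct
A single decamer also stood in the windows of Mdm2 (186 bases before the start) and Trp53 (75 bases before it). The AP-1 element TGANTCA, the kind of site that Fos binds with a Jun partner, was in none of the 12 windows and in 7.81% of all windows. A match is a description of these letters and not a bound site.

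A FosGFP+ library held between 3806776 and 5983711 counts in genes and a FosGFP- library between 2652230 and 4067543. The range was 4797954 to 10241655 counts among FoscKO libraries, against 5326686 to 6930696 counts among Control libraries. The share of reads in genes was 17.0% to 23.2% in FosGFP+ and 10.3% to 14.1% in FosGFP-, and the estimated even background was 6.39% to 10.6% of gene counts in FosGFP+ and 13.0% to 19.4% in FosGFP-, so both measures separated these groups with no overlap. Fos mRNA did not follow the labels in the first dataset or in 1 library of the second. The labels of the first dataset name a GFP reporter, so mRNA is set there beside a reporter signal. Fos had 5243, 5398, 3098 and 4606 CPM (counts scaled to a common library size, with TMM factors) in FosGFP+ libraries, against 12883, 11592, 7908 and 11302 CPM in FosGFP- libraries, a log2 fold change of -1.25 ± 0.21 (SE; edgeR adjusted p = 0.000933). Fos had 8442, 2876 and 3805 CPM in FoscKO libraries, against 5044, 5025 and 4733 CPM in Control libraries, so FoscKO replicate 1 lay above every Control library; whether those reads come from the deleted part was not analysed here. That library also stood apart in depth, with 10241655 counts and 30.2% of reads in genes, both above every other library, and results for the second dataset are given with and without it. All groups are therefore called by their labels only. The 12 dissociation and immediate early genes, Fos among them, summed to 24264 to 39886 CPM in FosGFP+ and 56956 to 80795 CPM in FosGFP-, with 7 of 12 called lower, and the 10 satellite cell markers to 9758 to 13463 CPM in FosGFP+ and 4526 to 7276 CPM in FosGFP-, with 5 of 10 called higher and none at 0. Fibro-adipogenic markers summed to 3658 to 4913 CPM in FosGFP+ and 2205 to 4874 CPM in FosGFP-, with 1 called lower. Sums for leukocyte, mature fibre, smooth muscle, erythroid and Schwann cell markers overlapped between these groups as well. The 7 endothelial markers summed to 80.8 to 91.6 CPM in FosGFP+ and 138 to 169 CPM in FosGFP-, with 1 of 7 called lower. Of all genes tested, 10.3% were called higher and 1.85% lower. Among genes of at least 50 CPM those shares were 41.9% and 1.02%, and the satellite cell calls are to be read beside them. These counts moved with the scaling described further on: with TMM factors from genes of at least 50 CPM, 3 satellite cell markers were called higher and 3 lower, and 6 endothelial markers and 11 dissociation and immediate early genes lower. In FoscKO the dissociation sum was 96339 CPM in replicate 1 and 44612 and 53178 CPM in the other libraries. In Control it was 41012 to 44627 CPM. Sums of all cell type lists overlapped between FoscKO and Control. Mature fibre markers summed to 363 to 1476 CPM in FoscKO and 1273 to 2637 CPM in Control. Their median log2 fold change was -1.33, with 0 called. Without FoscKO replicate 1 that median was -1.70, with 3 called lower. The part of these shifts in the results was not tested, and in bulk libraries fewer cells of a type and less RNA per cell cannot be told apart.

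Between FosGFP+ and FosGFP- cells, the p53 targets that restrain p53 (Mdm2), hold the cell cycle (Cdkn1a) and favour death (Pmaip1) were each higher in FosGFP+ libraries, by 2.06-fold to 2.44-fold, while Trp53 mRNA was not called. The GADD45 family split, with Gadd45g lower, Gadd45b not called and Gadd45a higher, the last a call that was lost under 3 other scalings. In all, 4 of the 10 genes were called higher and 1 lower at an adjusted p under 0.05, where 10.3% of the 20698 genes tested were called higher and 1.85% lower. For these 5 genes no FosGFP+ value fell among the FosGFP- values, which held for 19.3% of all genes tested (12.9% higher and 6.45% lower). The 5 were picked by their calls in the same libraries, so this is no separate support for the calls. Of genes with a mean of at least 50 CPM, which include 7 of the 10, 41.9% were called higher and 1.02% lower, and 4 of those 7 called higher is to be read beside that share. The median log2 fold change was 0.38 over the 10 genes, -0.18 over all genes tested and 0.57 over genes of at least 50 CPM.

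**Figure D1:**
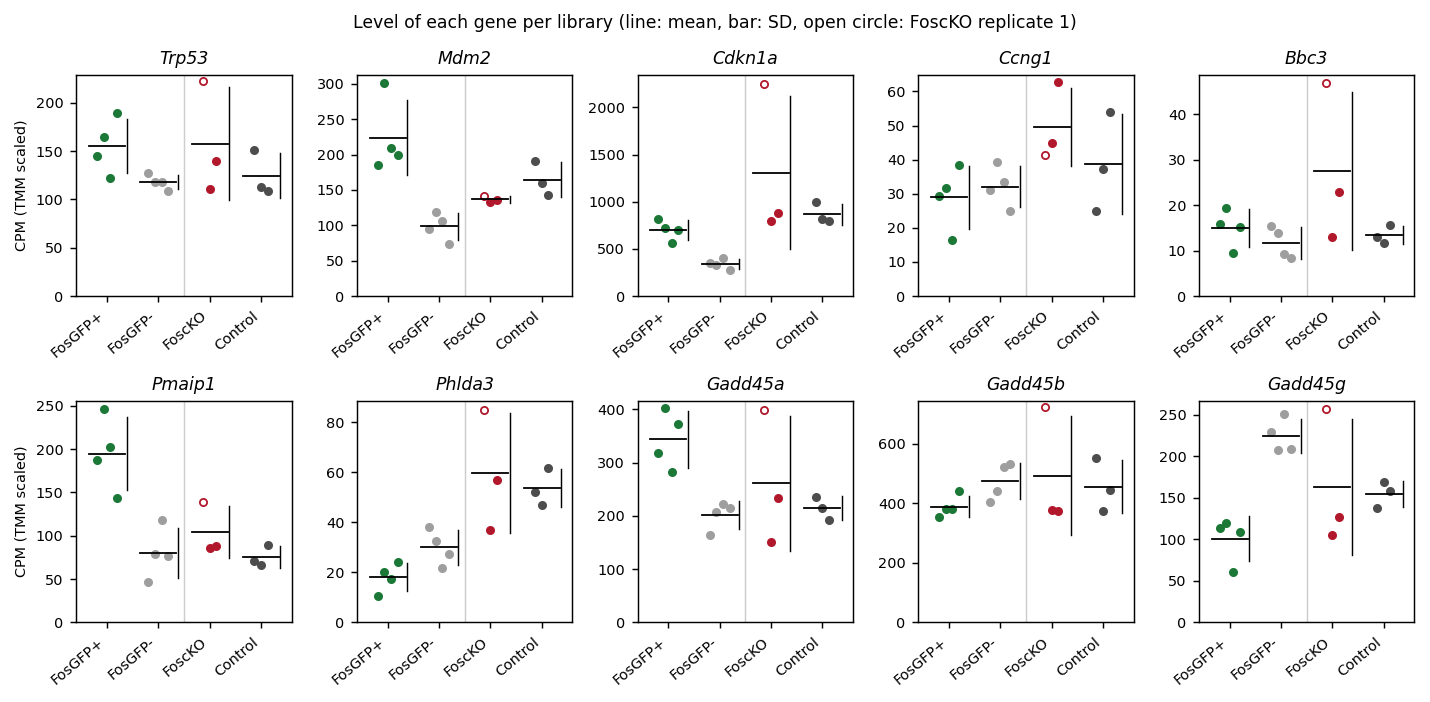
CPM of each of the 10 genes in every library (points), with the mean (line) and SD (bar) of the 4 FosGFP+, 4 FosGFP-, 3 FoscKO and 3 Control libraries, each panel with a linear axis from 0. Mdm2, Cdkn1a, Pmaip1 and Gadd45a lie higher in every FosGFP+ library than in any FosGFP- library and Gadd45g lies lower, and FoscKO replicate 1 (open circle) stands at 2250.1 CPM for Cdkn1a, above every other library.

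Trp53 (ENSMUSG00000059552, chr11:69580359-69591873, plus strand) had 145, 165, 123 and 189 CPM in FosGFP+ libraries, against 128, 118, 118 and 109 CPM in FosGFP- libraries. One FosGFP+ library fell within the FosGFP- range, so the groups overlapped. The log2 fold change was 0.40 ± 0.18 (SE), which missed the threshold (edgeR adjusted p = 0.175).

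Mdm2 (ENSMUSG00000020184, chr10:117688875-117710758, minus strand), the ubiquitin ligase of p53 and itself a p53 target, had 186, 302, 209 and 199 CPM in FosGFP+ libraries, against 94.5, 119, 106 and 73.8 CPM in FosGFP- libraries. Every FosGFP+ library was higher than every FosGFP- library. Mdm2 averaged 224 ± 52.8 CPM in FosGFP+ and 98.4 ± 19.3 CPM in FosGFP- (SD, n = 4 each), 2.27-fold higher, with a log2 fold change of 1.19 ± 0.21 (SE; edgeR adjusted p = 0.00142). Set against Trp53 in the same library, which frees the value from any scaling between libraries, the log2 ratio of Mdm2 to Trp53 was 0.36, 0.87, 0.77 and 0.07 in FosGFP+ libraries, against -0.43, 0.02, -0.15 and -0.56 in FosGFP- libraries. These ranges did not overlap, with a difference of 0.80 (exact two-sided permutation p = 0.0286, the smallest that 4 against 4 allows, and 0.0571 after Benjamini-Hochberg adjustment over the 10 ratio tests). Mdm4, the partner of Mdm2 that also binds p53, averaged 113 ± 19.6 CPM in FosGFP+ and 104 ± 23.1 CPM in FosGFP- (SD, n = 4 each; edgeR adjusted p = 0.743).

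Cdkn1a (ENSMUSG00000023067, chr17:29090976-29100727, plus strand) encodes p21, the inhibitor of cyclin-dependent kinases through which p53 halts the cell cycle. It had 820.0, 724, 557 and 696 CPM in FosGFP+ libraries, against 347, 329.9, 406 and 277 CPM in FosGFP- libraries. The groups did not overlap, and FosGFP+ was 2.06-fold higher, with a log2 fold change of 1.04 ± 0.18 (SE; edgeR adjusted p = 0.00131). The log2 ratio of Cdkn1a to Trp53 averaged 2.17 ± 0.26 in FosGFP+ and 1.51 ± 0.19 in FosGFP- (SD, n = 4 each; exact permutation p = 0.0286, adjusted 0.0571). Ccng1 (ENSMUSG00000020326, chr11:40748552-40755311, minus strand), which encodes cyclin G and is a p53 target that acts on p53 turnover, holds a p53 site of the same kind, shown above, but differed from Cdkn1a in its values. Ccng1 had 29.3, 31.5, 16.5 and 38.5 CPM in FosGFP+ libraries, against 31.0, 39.3, 33.4 and 24.8 CPM in FosGFP- libraries. These ranges overlapped, and the log2 fold change was -0.14 ± 0.27 (SE; edgeR adjusted p = 0.758), or 0.10 without FosGFP+ replicate 3.

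Among the 3 of the 10 genes linked to cell death or survival, Pmaip1 (ENSMUSG00000024521, chr18:66458533-66465565, plus strand), which encodes the BH3-only protein NOXA, was the one called. Pmaip1 had 188, 246, 202 and 144 CPM in FosGFP+ libraries, against 46.8, 78.7, 118 and 76.5 CPM in FosGFP- libraries. The lowest FosGFP+ library lay above the highest FosGFP- library, and FosGFP+ was 2.44-fold higher, with a log2 fold change of 1.29 ± 0.25 (SE; edgeR adjusted p = 0.00303). Bbc3 (ENSMUSG00000002083, chr7:16308393-16318205, plus strand), which encodes the BH3-only protein PUMA, was low throughout, at 16.0, 19.4, 9.39 and 15.2 CPM in FosGFP+ libraries, against 15.4, 13.8, 9.20 and 8.36 CPM in FosGFP- libraries. Its groups overlapped (log2 fold change 0.36 ± 0.33, SE; edgeR adjusted p = 0.513), and by an estimate from receptor genes of smell and taste, stray reads spread evenly over the genome would make up 12.8% of its counts in FosGFP+ and 21.9% in FosGFP-. Phlda3 (ENSMUSG00000041801, chr1:135766119-135769136, plus strand), a p53 target that competes with the kinase AKT for membrane lipids, had 10.7, 20.3, 17.4 and 24.2 CPM in FosGFP+ libraries, against 38.1, 32.7, 21.9 and 27.5 CPM in FosGFP- libraries. A single FosGFP+ library reached into the FosGFP- range, and the log2 fold change of -0.73 ± 0.29 (SE) missed the threshold (edgeR adjusted p = 0.119).

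Gadd45a (ENSMUSG00000036390, chr6:67035096-67037457, minus strand) had 318, 403, 283 and 372 CPM in FosGFP+ libraries, against 165, 206, 223 and 214 CPM in FosGFP- libraries. The groups did not overlap, and the log2 fold change was 0.77 ± 0.18 (SE; edgeR adjusted p = 0.00932), or 1.70-fold higher in FosGFP+. Gadd45a was not called under 3 other scalings, where its log2 fold change was 0.16 to 0.52. Of its 1764 exonic bases, 337 are shared with E230016M11Rik on the other strand, and this library kit does not keep the strand, so reads there cannot be told apart; E230016M11Rik itself had between 59 and 194 counts per library.

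Gadd45g (ENSMUSG00000021453, chr13:51846678-51848468, plus strand) had 114, 119, 60.3 and 109 CPM in FosGFP+ libraries, against 229.7, 208, 251 and 208 CPM in FosGFP- libraries. Every FosGFP+ library was lower than every FosGFP- library, with a log2 fold change of -1.15 ± 0.21 (SE; edgeR adjusted p = 0.00194), and FosGFP- was 2.22-fold higher. Fos was lower in FosGFP+ by a like amount (-1.25). The sum of dissociation and immediate early genes given above, of which Fos is itself a part, was lower as well. The part of that sum in the Gadd45g result was not tested. Gadd45b (ENSMUSG00000015312, chr10:80930073-80932204, plus strand) had 355, 381, 379 and 439 CPM in FosGFP+ libraries, against 404, 440.2, 521 and 529.9 CPM in FosGFP- libraries. FosGFP+ replicate 4 lay above FosGFP- replicate 1, so the ranges overlapped, and the log2 fold change was -0.29 ± 0.17 (SE; edgeR adjusted p = 0.285).

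Within a library the 3 GADD45 genes stood in a different proportion in the 2 groups. The log2 ratio of Gadd45g to Gadd45a was -1.48, -1.75, -2.22 and -1.76 in FosGFP+ libraries, against 0.48, 0.01, 0.17 and -0.04 in FosGFP- libraries. Gadd45a mRNA was thus well above Gadd45g in every FosGFP+ library and near it in every FosGFP- library, on CPM that are not per length. The log2 ratio of Gadd45b to Gadd45a was 0.16, -0.08, 0.42 and 0.24 in FosGFP+ libraries, against 1.29, 1.09, 1.22 and 1.31 in FosGFP- libraries, and that of Gadd45g to Gadd45b averaged -1.99 ± 0.47 in FosGFP+ and -1.07 ± 0.22 in FosGFP- (SD, n = 4 each). Each of these 3 ratios differed with no overlap of the groups, by -1.96, -1.04 and -0.91 on the log2 scale, and each had an exact permutation p of 0.0286, the smallest this design allows (0.0571 adjusted over the 10 ratio tests). The third ratio follows from the other 2, so these are not 3 separate results. How often other pairs of genes separate the groups was not examined. Of single genes tested, 19.3% did.

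**Figure D2:**
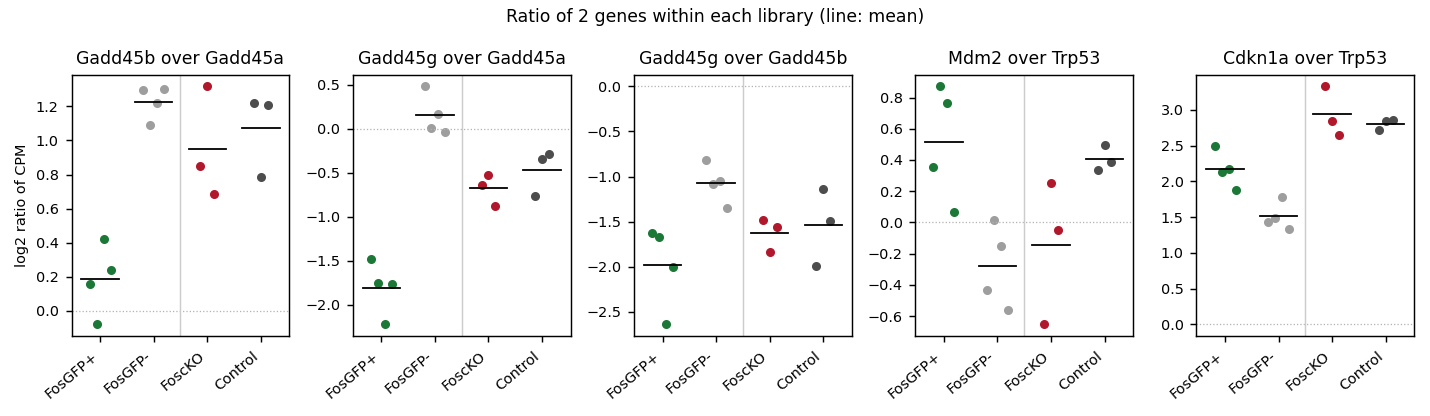
log2 ratio of CPM of 2 genes of the same library (points) and its mean (line) in the 4 FosGFP+, 4 FosGFP-, 3 FoscKO and 3 Control libraries. In each of the 5 panels the FosGFP+ and FosGFP- points do not overlap, most widely for Gadd45g over Gadd45a (means -1.80 in FosGFP+ and 0.15 in FosGFP-), while FoscKO and Control overlap in every panel but Mdm2 over Trp53. How often other pairs of genes separate the groups was not examined.

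Scaling between libraries decided part of this picture. Moving to total counts, to TMM factors from genes of at least 50 CPM, or to counts less an even background changed log2 fold changes, in the median over genes, by -0.38, -0.59 and -0.19 from those under TMM. The higher calls for Mdm2, Cdkn1a and Pmaip1 and the lower call for Gadd45g held under all 4 scalings, with log2 fold changes of at least 0.60 for Mdm2, 0.46 for Cdkn1a and 0.70 for Pmaip1, and of -1.76 to -1.15 for Gadd45g. Gadd45a stayed positive but was not called under the other 3 of these 4 scalings, at 0.37, 0.16 and 0.52 (edgeR adjusted p = 0.101, 0.397 and 0.0667). With the size factors of DESeq2, a scaling outside these 4, the 10 genes had 4 called higher and 1 lower, as with TMM. Lower calls were added for Phlda3 (-1.12 and -1.33) and Gadd45b (-0.68 and -0.89) with total counts and with TMM from genes of at least 50 CPM, and for Ccng1 (-0.74) with the second of these. Trp53 turned negative with TMM from genes of at least 50 CPM (-0.20) and Bbc3 with that and with total counts (-0.23 and -0.02), none of them called. The median over the 10 genes, 0.38 with TMM, was -0.22 with TMM from genes of at least 50 CPM, where 3 were called higher and 4 lower. The split of all calls, 2125 higher and 383 lower with TMM, turned to 1029 higher and 2087 lower with total counts and 712 higher and 5307 lower with TMM from genes of at least 50 CPM, and was 1321 higher and 258 lower less the background.

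**Figure D3:**
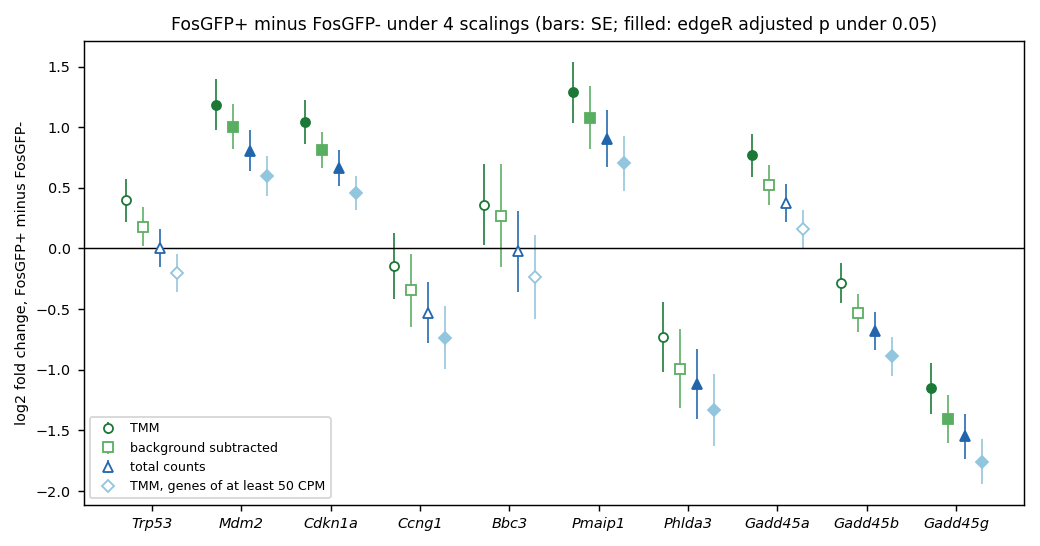
log2 fold change, FosGFP+ minus FosGFP-, of the 10 genes under 4 scalings (bars: SE; filled symbols: edgeR adjusted p under 0.05). Mdm2, Cdkn1a and Pmaip1 stay above 0 and filled throughout and Gadd45g below 0, while Gadd45a is filled with TMM only and Trp53 and Bbc3 turn below 0 under 1 and 2 scalings.

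The authors' deposited table for this comparison, whose fold changes are FosGFP- over FosGFP+ and were turned round here, lists 5 of the 10 genes. In the authors' deposited table these are Pmaip1 (1.30), Mdm2 (1.22), Cdkn1a (1.10), Gadd45a (0.84) and Gadd45g (-0.99), on the log2 scale, the same 5 genes that were called here.

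Per exonic kilobase, on which levels can be set between genes, the GADD45 genes and Cdkn1a led in all 4 groups. In FosGFP+ the order was Gadd45b (245 CPM per kb), Cdkn1a (197), Gadd45a (195), Gadd45g (85.8), Pmaip1 (71.3), Mdm2 (44.0), Trp53 (38.4), Phlda3 (11.6), Ccng1 (8.25) and Bbc3 (7.06). Neighbours in that order overlapped over libraries except Gadd45a with Gadd45g and Trp53 with Phlda3. In FosGFP- the order was Gadd45b (298 CPM per kb), Gadd45g (191), Gadd45a (115), Cdkn1a (95.6), Pmaip1 (29.3), Trp53 (29.2), Mdm2 (19.4), Phlda3 (19.3), Ccng1 (9.14) and Bbc3 (5.50). There the neighbours Gadd45a and Cdkn1a, Pmaip1 and Trp53, Mdm2 and Phlda3, and Ccng1 and Bbc3 overlapped, and the others did not. Gadd45g thus stood above Gadd45a and Cdkn1a in FosGFP- and below both in FosGFP+.

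**Figure D4:**
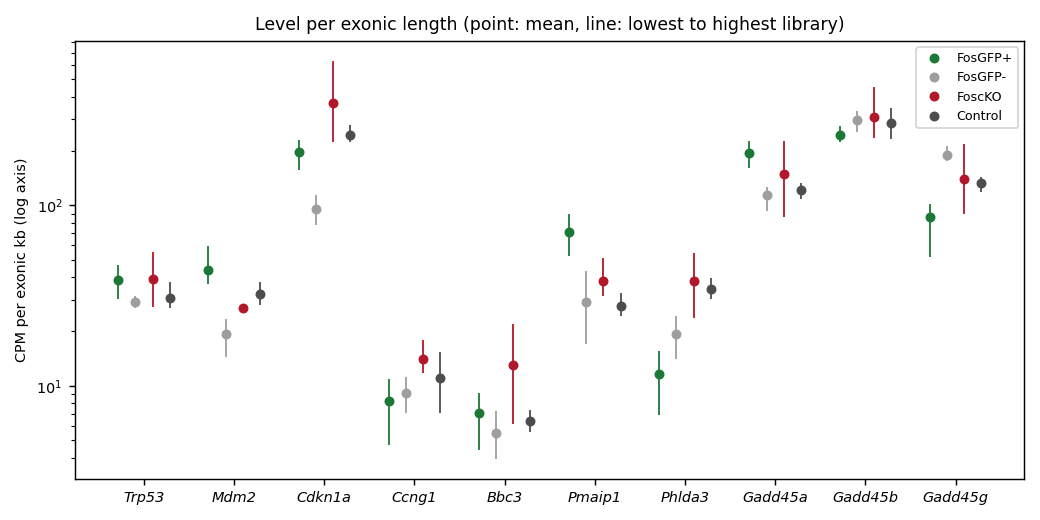
CPM per exonic kilobase (log axis) of the 10 genes, as the mean (point) and the range from the lowest to the highest library (line) in FosGFP+, FosGFP-, FoscKO and Control. Gadd45b averages 245 CPM per kb in FosGFP+ and 298 in FosGFP-, and Bbc3, the lowest gene in all 4 groups, 7.06 in FosGFP+ and 5.50 in FosGFP-.

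Of the other genes of the pathway, 5 lists were read beside the same fit, where the median over all genes tested was -0.18 and 10.3% of them were called higher and 1.85% lower (41.9% and 1.02% among genes of at least 50 CPM). Of the 12 genes tested from the list named death targets, 5 were called higher and 0 lower, with a median log2 fold change of 0.49. The name is that of the list, and whether each of its genes answers to p53 or acts in cell death was not tested. With TMM from genes of at least 50 CPM 4 were called higher and 1 lower, and the median was -0.11. Cd82, a tetraspanin of the cell surface that is a p53 target, averaged 2690.0 ± 361 CPM in FosGFP+ and 1113 ± 246 CPM in FosGFP- (SD, n = 4 each), with a log2 difference of 1.27 (edgeR adjusted p = 0.000519). Bcl2l11, which encodes the BH3-only protein BIM, averaged 89.6 ± 15.0 CPM in FosGFP+ and 38.5 ± 1.76 CPM in FosGFP- (log2 fold change 1.22), and Aen, a p53-induced nuclease, 93.7 ± 5.68 CPM in FosGFP+ and 38.9 ± 12.5 CPM in FosGFP- (log2 fold change 1.26). Cd82, Bcl2l11 and Aen stayed called under all 4 scalings.

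Of the 17 arrest and repair targets tested, 3 were called higher and 2 lower, with a median of -0.44. With total counts 1 was called higher and 6 lower, and with TMM from genes of at least 50 CPM 1 higher and 7 lower; less the background 2 were called higher and 1 lower. Sesn2, a stress-induced inhibitor of mTORC1 signalling, averaged 199 ± 48.3 CPM in FosGFP+ and 65.4 ± 25.9 CPM in FosGFP- (SD, n = 4 each), with a log2 difference of 1.60 that stayed called under all 4 scalings. Btg2, an antiproliferative p53 target that is also an immediate early gene, averaged 1538 ± 234 CPM in FosGFP+ and 2551 ± 122 CPM in FosGFP-, a log2 fold change of -0.73 that stayed called as well. The kinase genes Plk2 (0.79) and Plk3 (0.73) were called higher and Gtse1 (-1.54), a negative regulator of p53, lower. Plk2 lost its call with total counts and with TMM from genes of at least 50 CPM, Plk3 under all 3 other scalings and Gtse1 less the background. Plk3 also lost its call without any one of FosGFP+ replicates 1, 2 and 4 or FosGFP- replicates 2, 3 and 4 (edgeR adjusted p from 0.0607 to 0.103), and Gtse1 without any library but FosGFP+ replicate 2 (edgeR adjusted p from 0.0502 to 0.153).

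Of the 11 p53 regulators tested, 2 were called higher and 0 lower, with a median of 0.12. The 2 were the kinase gene Hipk2 (log2 fold change 0.80) and the acetyltransferase gene Kat5 (0.75). Neither was called under the other 3 of the 4 scalings. There the list had 0 called higher and 3 lower (total counts), 0 and 4 (TMM from genes of at least 50 CPM) and 0 and 0 (less the background). With the size factors of DESeq2 the list had 2 called higher and 0 lower. Leaving out replicate 2 or 4 of FosGFP+, or replicate 1 or 2 of FosGFP-, ended the call of Hipk2 (edgeR adjusted p from 0.0766 to 0.113). Kat5 lost it without any library but FosGFP+ replicate 3 and FosGFP- replicate 3 (edgeR adjusted p from 0.0608 to 0.108). Of the 12 partners of the GADD45 proteins, 2 were called higher and 0 lower, with a median of 0.29. With total counts 1 was called higher and 2 lower, and with TMM from genes of at least 50 CPM 1 higher and 3 lower. Map2k3, a kinase of the p38 branch into which GADD45 proteins feed, averaged 1049 ± 145 CPM in FosGFP+ and 346 ± 136 CPM in FosGFP- (SD, n = 4 each), with a log2 difference of 1.60 that was called under all 4 scalings. Pcna (0.81), the replication clamp, was not called under the other 3. Of the 5 other inhibitors of cyclin-dependent kinases tested, 0 were called, with a median of -0.56, and 1 was called lower with TMM from genes of at least 50 CPM.

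The genes whose pattern over the 8 libraries of the first dataset came closest to Mdm2, by the root mean square distance between centred log2 CPM, were Ythdf3 (0.079), Lin7c (0.088) and Il4ra (0.105), where the median over 7812 genes of at least 20 CPM was 0.554. Closest to Cdkn1a were Eif1 (0.081), Oser1 (0.092) and Ndel1 (0.096), where that median was 0.497. Neither Mdm2 nor Cdkn1a was among the 3 closest genes of the other.

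Between FoscKO and Control cells none of the 10 genes was called, and neither was any of the 21885 genes tested with edgeR (0%; 1208 at an unadjusted p under 0.05, 93 called by DESeq2 and 6 by limma-voom). Adjusted p-values of the 10 genes ran from 0.861 to 0.981, and their median log2 fold change was 0.32, or -0.10 without FoscKO replicate 1. Mdm2 was the one gene of the 10 whose groups did not overlap, at 142, 133 and 135 CPM in FoscKO libraries, against 191, 159 and 143 CPM in Control libraries, where 12.2% of all genes tested did not overlap (5.75% higher and 6.47% lower in FoscKO). All 3 FoscKO libraries lay just under the lowest Control library, and the log2 fold change was -0.27 ± 0.24 (SE), or -0.29 without FoscKO replicate 1.

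Most of the other values turned on FoscKO replicate 1. Cdkn1a had 2250.1, 798 and 880.2 CPM in FoscKO libraries, against 994, 814 and 796 CPM in Control libraries. Replicate 1 was alone above the Control range, and the log2 fold change was 0.59 ± 0.38 (SE) with it and -0.05 without it. Bbc3, with the smallest p of the 10 (unadjusted 0.0306, edgeR adjusted p = 0.861), had 46.9, 13.0 and 23.0 CPM in FoscKO libraries, against 13.1, 11.7 and 15.6 CPM in Control libraries. Its log2 fold change was 1.04 ± 0.43 (SE) with replicate 1 and 0.43 without it. Replicate 3 also lay above the Control range, and replicate 2 within it. Trp53 had 223, 111 and 139 CPM in FoscKO libraries, against 151, 113 and 109 CPM in Control libraries, and its log2 fold change was 0.34 with replicate 1 and 0.01 without it.

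The remaining targets overlapped as well. Pmaip1 had 139, 86.1 and 88.0 CPM in FoscKO libraries, against 70.6, 66.2 and 89.8 CPM in Control libraries, with a log2 fold change of 0.47 ± 0.27 (SE), or 0.21 without replicate 1. Ccng1 had 41.5, 44.7 and 62.6 CPM in FoscKO libraries, against 24.9, 37.3 and 54.1 CPM in Control libraries (0.36 ± 0.31, or 0.47 without replicate 1). Phlda3 had 84.9, 37.1 and 57.0 CPM in FoscKO libraries, against 52.3, 47.0 and 61.9 CPM in Control libraries (0.15 ± 0.30, or -0.18 without replicate 1). Leaving that library out raised the value of Ccng1, lowered that of Pmaip1 and turned that of Phlda3 negative, as did scaling by total counts (-0.12).

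The 3 GADD45 genes shared the high replicate 1. Gadd45a had 399.7, 152 and 233 CPM in FoscKO libraries, against 236, 216 and 192 CPM in Control libraries. Gadd45b had 722, 378 and 375 CPM in FoscKO libraries, against 550.0, 372 and 444 CPM in Control libraries. Gadd45g had 257, 105 and 127 CPM in FoscKO libraries, against 138, 169 and 158 CPM in Control libraries. In each gene replicate 1 was the highest of the 6 libraries, and for Gadd45g the other 2 FoscKO libraries lay under all Control libraries. The log2 fold changes were 0.29 ± 0.32 for Gadd45a, 0.11 ± 0.31 for Gadd45b and 0.07 ± 0.32 for Gadd45g (SE), and without replicate 1 they were -0.15, -0.27 and -0.41, none of them called. With all libraries, scaling by total counts turned Gadd45b (-0.15) and Gadd45g (-0.22) negative too, where log2 fold changes moved by -0.18 in the median over genes. Replicate 1 also had the highest dissociation and immediate early sum (96339 CPM), and its part in these values was not tested.

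**Figure D5:**
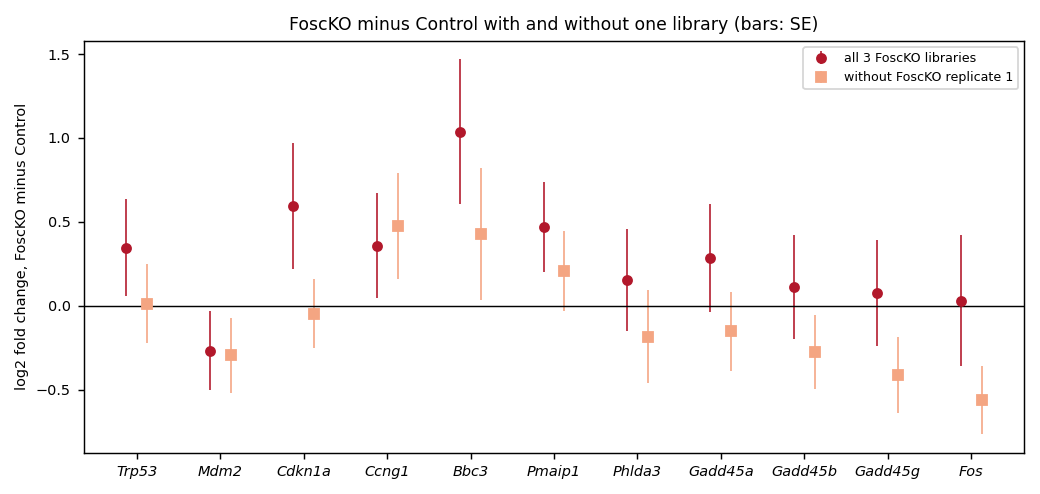
log2 fold change, FoscKO minus Control, of the 10 genes and Fos with all 3 FoscKO libraries (circles) and without FoscKO replicate 1 (squares), with SE as bars. Cdkn1a, Phlda3, Gadd45a, Gadd45b, Gadd45g and Fos turn from above to below 0 when that library is left out, and Mdm2 stays at -0.27 and -0.29.

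Ratios within a library were set side by side in the same way. The log2 ratio of Gadd45g to Gadd45a averaged -0.68 ± 0.18 in FoscKO and -0.47 ± 0.26 in Control (SD, n = 3 each; exact permutation p = 0.3), a difference of -0.21, or -0.23 without FoscKO replicate 1. That of Gadd45b to Gadd45a averaged 0.95 ± 0.33 in FoscKO and 1.07 ± 0.25 in Control (SD, n = 3 each; exact permutation p = 0.8), a difference of -0.12, or -0.071 without that library. The ratio of Gadd45g to Gadd45b differed by -0.09, or -0.16 without it (exact permutation p = 0.9 and 0.7). In both ratios to Trp53, replicate 1 was the most extreme FoscKO library. The log2 ratio of Mdm2 to Trp53 was -0.65, 0.26 and -0.05 in FoscKO libraries, against 0.34, 0.49 and 0.39 in Control libraries, with no overlap and a difference of -0.55 (exact permutation p = 0.1, the smallest that 3 against 3 allows, so no threshold of 0.05 can be reached). Without FoscKO replicate 1 that difference was -0.30, and it ranged from -0.75 to -0.30 with 1 library left out. That of Cdkn1a to Trp53 averaged 2.94 ± 0.35 in FoscKO and 2.81 ± 0.08 in Control (SD, n = 3 each; exact permutation p = 0.9), a difference of 0.14, or -0.059 without replicate 1, which at 3.33 was the highest of the 6 libraries.

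Per exonic kilobase the order in FoscKO was Cdkn1a (369 CPM per kb), Gadd45b (309), Gadd45a (148), Gadd45g (139), Trp53 (39.0), Phlda3 (38.3), Pmaip1 (38.2), Mdm2 (26.9), Ccng1 (14.1) and Bbc3 (13.0). In Control it was Gadd45b (287 CPM per kb), Cdkn1a (244), Gadd45g (132), Gadd45a (122), Phlda3 (34.5), Mdm2 (32.3), Trp53 (30.8), Pmaip1 (27.6), Ccng1 (11.0) and Bbc3 (6.36). In FoscKO the neighbours that did not overlap were Gadd45b and Gadd45a, Gadd45g and Trp53, Pmaip1 and Mdm2, and Mdm2 and Ccng1, and in Control they were Cdkn1a and Gadd45g, Gadd45a and Phlda3, and Pmaip1 and Ccng1. Without FoscKO replicate 1 the order there was Gadd45b (237 CPM per kb), Cdkn1a (236), Gadd45a (109), Gadd45g (99.1), Pmaip1 (31.9), Trp53 (31.0), Phlda3 (30.2), Mdm2 (26.3), Ccng1 (15.3) and Bbc3 (8.48). Phlda3 thus stood on a level with Trp53 in the second dataset and below it, with no overlap, in both FosGFP+ and FosGFP-. The datasets differ in age and were counted and scaled apart, so that difference between datasets was not tested.

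Of the 5 pathway lists, 0 genes were called between FoscKO and Control by edgeR with TMM, with medians of 0.08 for p53 regulators, 0.02 for arrest and repair targets, -0.02 for death targets, 0.06 for GADD45 partners and 0.64 for the other kinase inhibitors, where the median over all genes was -0.04. Without FoscKO replicate 1 these medians were 0.10, 0.14, -0.17, -0.05 and 0.45, in the same order. Btg2 averaged 5112 ± 1994 CPM in FoscKO and 1925 ± 19.5 CPM in Control (SD, n = 3 each), with a log2 difference of 1.41 that was not called (edgeR adjusted p = 0.297). It was called by edgeR when libraries were scaled by their totals (1.14, adjusted p = 0.0104), when the TMM factors came from genes of at least 50 CPM (1.14, adjusted p = 0.0158), with no filter (1.44, adjusted p = 0.0082) and without FoscKO replicate 1 (1.04, adjusted p = 0.0288), and by DESeq2 (1.46, adjusted p = 0.00141), and its adjusted p ran up to 1.00 with a Control library left out. Cdkn1c, which encodes a kinase inhibitor of the Cdkn1a family and was looked at after its values were seen, was called with no filter and by DESeq2 (1.78 in both). The authors' deposited table for this comparison lists 69 genes and 0 of the 10, and in it Btg2 stands at a log2 fold change of 1.29, turned round to FoscKO minus Control, with an adjusted p of 0.00839. Cdkn1c is listed there as well, at 1.42. Btg2 was lower in FosGFP+ and had positive values in FoscKO under all of these settings.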

How the data were processed

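RNA of 14 libraries of sorted mouse satellite cells was amplified with SMART-Seq v4 and tagged with Nextera XT, per the labels' protocols, a kit that does not keep the strand. Per the submitters' processing notes the build was GRCm38 and the tools were limma, DESeq2 1.20.0, HTSeq 0.6.1 and STAR 2.5.0c; what each did is not stated there. The authors deposited 2 tables of raw read counts per Ensembl gene, 1 for each dataset, and lines that name no gene, which held 69.8% to 89.7% of reads per library, were left out of library sizes and tests. The authors deposited, for each dataset, a table of log2 fold changes with errors and of p-values and adjusted p-values, whose fold changes are opposite in sign to those given here. A further 14 columns of per-library values in those tables were not used, since their names match no label.

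Gene positions, exon lengths and symbols were read from GENCODE release M21, which held 49412 of 49671 identifiers, and promoters from the RefSeq table of GRCm38.p6. Each dataset was fitted alone: filterByExpr, TMM and the robust quasi-likelihood F-test of edgeR 4.0.16 (R 4.3.3), two-sided, with no covariate, and with Benjamini-Hochberg adjustment over all genes tested. An adjusted p under 0.05 is called. The SE is the size of the log2 fold change divided by the square root of F. Ratios within a library are of CPM with 0.5 added, tested by exact permutation over libraries, also in R. The promoter windows were searched in Python 3.11.15. No window of Pmaip1 was among them, so the counts of promoter elements leave that gene out. The even background is the reads per exonic kilobase of 1469 chemosensory receptor genes (olfactory, vomeronasal, taste), multiplied by the exonic length of each gene.

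The 10 genes, the lists and the tests were chosen with earlier results of these data known. All 10 genes and Fos are named, with up to 3 called genes per direction of each list by smallest p, Mdm4, and the 3 genes closest to Mdm2 and to Cdkn1a over the 8 libraries among genes of at least 20 CPM. Alternatives were limma-voom (limma 3.58.1), DESeq2 1.42.0 and its size factors, scaling by total counts or by TMM from genes with 50 CPM or more, a filter at 5 CPM or none, counts less the even background, a block for the replicate number, ratios with 1 CPM added, and each library left out. The edgeR steps were tested on simulated data with known changes.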

Additional observations from a re-analysis of the deposited data

Results flagged for a closer look

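Gadd45g stood at 60.3 CPM in FosGFP+ replicate 3, against 114, 119 and 109 CPM in the other 3 FosGFP+ libraries. The gap between this library and its nearest neighbour was 0.831 of the range of the group, over the value that Dixon's test allows for 4 samples. Of 32 sets of 4 values checked, for genes and ratios in the same FosGFP+ and FosGFP- libraries, 1 was set apart in this way. Chance sets apart about 1 in 20 of independent sets, and these sets are not independent. Without that library the Gadd45g log2 fold change, FosGFP+ minus FosGFP-, was -0.92 and still called.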

How the results depend on the processing

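Of 170 log2 fold changes of the 10 genes recomputed for FosGFP+ against FosGFP- and 150 for FoscKO against Control, 158 and 131 kept their direction and their side of the threshold. In the first comparison, leaving out any 1 library left the 5 called genes of the 10 called, and genes called over all ranged from 1893 to 2566. Genes called, 2508 with TMM, were 6019 with TMM from genes of at least 50 CPM and 1579 less the even background. The log2 fold changes that turned were Trp53 (-0.20) and Bbc3 (-0.23) with TMM from genes of at least 50 CPM, Bbc3 with total counts (-0.025) and Ccng1 without FosGFP+ replicate 3 (0.10). With 1 library left out, the exact p reached 0.0571 in some cases for 3 ratios, whose differences then ranged from -1.03 to -0.70 for Gadd45g over Gadd45b, 0.68 to 0.95 for Mdm2 over Trp53 and 0.55 to 0.76 for Cdkn1a over Trp53.

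In FoscKO against Control, genes called, 0 with TMM, were 46 with total counts, 44 with TMM from genes of at least 50 CPM, 131 with no filter, 32 with a filter at 5 CPM, 15 less the background, 6 with limma-voom and 93 with DESeq2, and from 0 to 43 with 1 library left out (43 without FoscKO replicate 1). None was among the 10 genes. Log2 fold changes that turned, none called, were, with total counts, Phlda3 (-0.12), Gadd45b (-0.15), Gadd45g (-0.22) and Fos (-0.28); with TMM from genes of at least 50 CPM, Phlda3 (-0.13), Gadd45a (-0.0028), Gadd45b (-0.15), Gadd45g (-0.22) and Fos (-0.28); with a filter at 5 CPM, Gadd45g (-0.043) and Fos (-0.091). Less the background they were Phlda3 (-0.00025), Gadd45b (-0.041), Gadd45g (-0.091) and Fos (-0.15), and with limma-voom Gadd45g (-0.030) and Fos (-0.13). With libraries left out, values ranged from -0.048 to 0.87 for Cdkn1a, -0.18 to 0.42 for Phlda3, -0.15 to 0.58 for Gadd45a, -0.27 to 0.29 for Gadd45b, -0.41 to 0.33 for Gadd45g and -0.56 to 0.33 for Fos. Ratio differences then ranged from -0.30 to 0.013 for Gadd45b over Gadd45a, -0.32 to 0.11 for Gadd45g over Gadd45b, -0.75 to -0.30 for Mdm2 over Trp53 and -0.059 to 0.28 for Cdkn1a over Trp53. The causes were not tested.

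The replicate numbers were not shown to pair libraries: deviations of same-numbered libraries correlated across genes at 0.003, 0.01, 0.03 and -0.01 in the first dataset and 0.21, 0.03 and -0.04 in the second. With the replicate number as a block, 2280 genes (2002 higher, 278 lower) were called in the first comparison and 43 (23 higher, 20 lower) in the second, where Gadd45g (-0.038) and Fos (-0.13) turned. It changed no call among the 10 genes. At these depths Bbc3 rested on 28 to 347 counts per library, the fewest of the 10 in most libraries.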
